A study of Mus musculus with 4 samples.

Results

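The 42 proliferation genes described here were the rows of the mesenchymal stromal cell (MSC) count table whose symbol is on a fixed list of cell-cycle genes. All 42 were found among the 56980 genes listed. Mesenchymal stromal cells are the fibroblast-like niche cells of the bone marrow that give rise to bone and fat and that support blood stem cells. The series holds 4 libraries, each made from 100 sorted MSCs (CD45- Ter119- CD31- CD51+ PDGFRa+ Sca1-) of the bone marrow of 1 male wild-type C57BL/6J mouse from an in-house inbred colony at 14 weeks of age. The 4 mice form 1 group, with no treated or mutant mice beside them, so the values describe the level of each gene and its spread between mice. Full-length cDNA primed at the poly(A) tail was enriched by PCR before tagmentation, and read pairs were counted per gene. DNA content and cell division were not measured in these cells.

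Dividing cells switch on their genes in a fixed order. D-type cyclins with the kinases Cdk4 and Cdk6 act in G1 and inactivate the retinoblastoma protein, which frees E2F factors to drive cyclin E and the genes that license and copy DNA. Cyclins A and B, the kinase Cdk1 and the spindle and centromere genes follow in G2 and mitosis, and their promoters are held silent in resting cells by the DREAM complex. Stromal cells of the adult marrow are known as a slowly dividing population.

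The mitotic members are shown first by their promoters, because CCAAT boxes (bound by NF-Y) and the cell cycle homology region (CHR, bound by DREAM and by the MuvB complex with B-Myb) are the known control elements of such genes. In the sequences below, taken from RefSeq on the GRCm38.p6 build and running from 250 bases before to 50 bases after the start of the gene, 5′ to 3′, capitals mark 3 kinds of word, each searched on both strands. CCAAT reads ATTGG on the other strand. The CHR was searched as TTTGAA and in its rarer form as TTCGAA. No other form of the CHR was searched, so a promoter without these words may still hold one. An E2F word was TTTCCCGC in the first form searched, TTTGGCGC in the second form, TTTCGCGC in the third form and TTTGCCGC in the fourth. Ccnb2 (chr9:70421505-70421804, minus strand) held 3 CCAAT boxes and 2 CHR words, Cdc20 (chr4:118437294-118437593, minus strand) held 2 CCAAT boxes and 1 CHR word, and Ccnb1 (chr13:100786437-100786736, minus strand) held 2 CCAAT boxes with neither CHR word. Mcm6 (chr1:128359656-128359955, minus strand) and Cdk4 (chr10:127063285-127063584, plus strand) were added after their values were seen, as a licensing gene with 3 E2F words, 2 of which overlap, and as a G1 gene with none of the words.
Ccnb2: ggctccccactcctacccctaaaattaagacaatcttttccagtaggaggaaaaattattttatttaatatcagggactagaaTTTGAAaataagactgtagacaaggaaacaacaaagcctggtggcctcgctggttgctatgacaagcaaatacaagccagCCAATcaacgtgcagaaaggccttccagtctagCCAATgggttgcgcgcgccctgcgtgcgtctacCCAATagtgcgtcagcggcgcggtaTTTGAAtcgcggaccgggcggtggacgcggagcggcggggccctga
Cdc20: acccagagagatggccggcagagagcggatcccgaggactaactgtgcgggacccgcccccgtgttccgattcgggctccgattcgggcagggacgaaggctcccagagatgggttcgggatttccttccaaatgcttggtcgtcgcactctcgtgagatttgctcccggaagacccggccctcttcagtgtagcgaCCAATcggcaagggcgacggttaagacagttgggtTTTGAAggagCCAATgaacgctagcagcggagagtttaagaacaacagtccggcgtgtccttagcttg
Ccnb1: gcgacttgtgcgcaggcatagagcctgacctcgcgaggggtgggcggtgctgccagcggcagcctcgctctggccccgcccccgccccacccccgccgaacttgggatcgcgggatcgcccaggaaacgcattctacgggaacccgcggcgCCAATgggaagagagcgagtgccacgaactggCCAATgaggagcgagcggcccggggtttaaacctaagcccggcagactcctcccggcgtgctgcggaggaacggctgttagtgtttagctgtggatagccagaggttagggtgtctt
Mcm6: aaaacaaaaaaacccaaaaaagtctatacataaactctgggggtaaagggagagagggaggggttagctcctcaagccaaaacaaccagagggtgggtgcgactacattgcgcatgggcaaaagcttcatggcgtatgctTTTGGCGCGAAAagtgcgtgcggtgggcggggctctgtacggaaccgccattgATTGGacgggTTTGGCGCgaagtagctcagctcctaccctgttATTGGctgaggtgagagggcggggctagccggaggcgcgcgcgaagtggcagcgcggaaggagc
Cdk4: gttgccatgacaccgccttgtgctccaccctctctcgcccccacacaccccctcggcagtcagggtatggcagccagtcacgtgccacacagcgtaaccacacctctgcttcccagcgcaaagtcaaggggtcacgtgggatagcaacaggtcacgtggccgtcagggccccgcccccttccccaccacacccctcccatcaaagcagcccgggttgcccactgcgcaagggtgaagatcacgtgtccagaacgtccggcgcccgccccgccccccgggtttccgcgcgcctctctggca

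In Ccnb2 the CCAAT boxes began 87, 54 and 21 bases before the start of the gene. The promoter table held 38 promoters of 34 of the members. It held none for Ccnd1, Ccnd2, Ccne2, Mcm4, Gmnn, Ccna2, Foxm1 and Aurkb. Of the 16 promoters of mitotic members (G2/M control genes together with chromosome and spindle genes), 15 (93.8%) held CCAAT and 13 (81.2%) held a CHR word, compared with 37.4% and 19.2% of all 32851 promoters in the table. Both words together stood in 13 of these 16 promoters (81.2%) and in 7.52% of all promoters. Birc5, which encodes survivin, was the mitotic member with neither word in this window, and Top2a held 6 CCAAT boxes and 4 CHR words. E2F words showed another distribution, with 1 of 16 mitotic promoters (6.25%), 5 of 7 origin licensing promoters (71.4%) and 2.26% of all promoters. The 4 promoters of Ccnd3, Cdk4 and Cdk6 held 1 CCAAT box between them and no CHR or E2F word. These matches describe the letters of the reference sequence, and several genes contribute 2 promoters to the counts.

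Mouse 2 stood apart before any member was considered. Its library showed 16109 genes above 0 counts against 18683 to 18907 in the other three, while total counts ran from 22738604 in mouse 4 to 43545349 in mouse 1, with 26050230 in mouse 2. Marrow stromal markers (Cxcl12, Lepr, Prrx1, Foxc1, Ebf3, Kitl and Adipoq) were present in every library, with a summed level of 1251, 5279, 2786 and 1428 TPM (counts divided by gene length and scaled to a sum of 1000000) in mice 1 to 4. Osteoblast markers (Bglap, Ibsp, Sp7, Alpl and Runx2) were also present in every library. They summed to far more than the marrow stromal markers, at 109020, 133689, 77834.5 and 168068 TPM in mice 1 to 4, most of it Bglap. Sp7, Alpl and Runx2 were each below Cxcl12 in every mouse. Chondrocyte markers (Acan, Col9a1, Col11a2, Matn3 and Sox9) summed to 375.7, 233.6, 226.5 and 218.9 TPM, most of it Col11a2. Of the antigens used in the sort, the positive ones Pdgfra and Itgav (CD51) were present in all 4 libraries. Of the negative ones, Ly6a (Sca1) had 1, 120, 0 and 144 counts in mice 1 to 4, which are 8.95 and 11.6 TPM in mice 2 and 4, Ptprc (CD45) had 2, 2, 0 and 50 counts, and Pecam1 (CD31) had 5 to 14 counts. Erythroid markers summed to 3821, 21.2, 1315 and 304.6 TPM in mice 1 to 4, and all 6 were highest in mouse 1 and lowest or tied for lowest in mouse 2. Results are therefore given with and without mouse 2 where it decides them, except for the spread of single genes between mice.

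Most of the proliferation genes were above the 1 TPM that the study itself used as its limit of expression. A median above 1 TPM over the 4 mice was found for 32 of 42 members (76.2%), compared with 44.2% of 21922 protein-coding genes and 22.9% of all genes with a length. The median of the members' median levels was 4.85 TPM, and that of protein-coding genes was 0.135 TPM. Far fewer held this level in each mouse, with 10 of 42 members (23.8%) above 1 TPM in all 4 libraries against 30.1% of protein-coding genes. Likewise, 14 of 42 (33.3%) had 3 or more counts in every library against 37.5% of protein-coding genes. Of the 42 members, 22 had 0 counts in at least 1 mouse. With all 4 mice the members were thus above the background by their median and near or below it by their presence in every mouse. Mouse 2 decides the latter. Without it, an alternative added after the data were seen, 35 of 42 members (83.3%) had 3 or more counts in each of mice 1, 3 and 4 against 42.1% of protein-coding genes, and 25 (59.5%) were above 1 TPM in each against 34.3%. By the median over these 3 mice, 36 members (85.7%) were above 1 TPM against 43.9% of protein-coding genes.

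**Figure D1:**
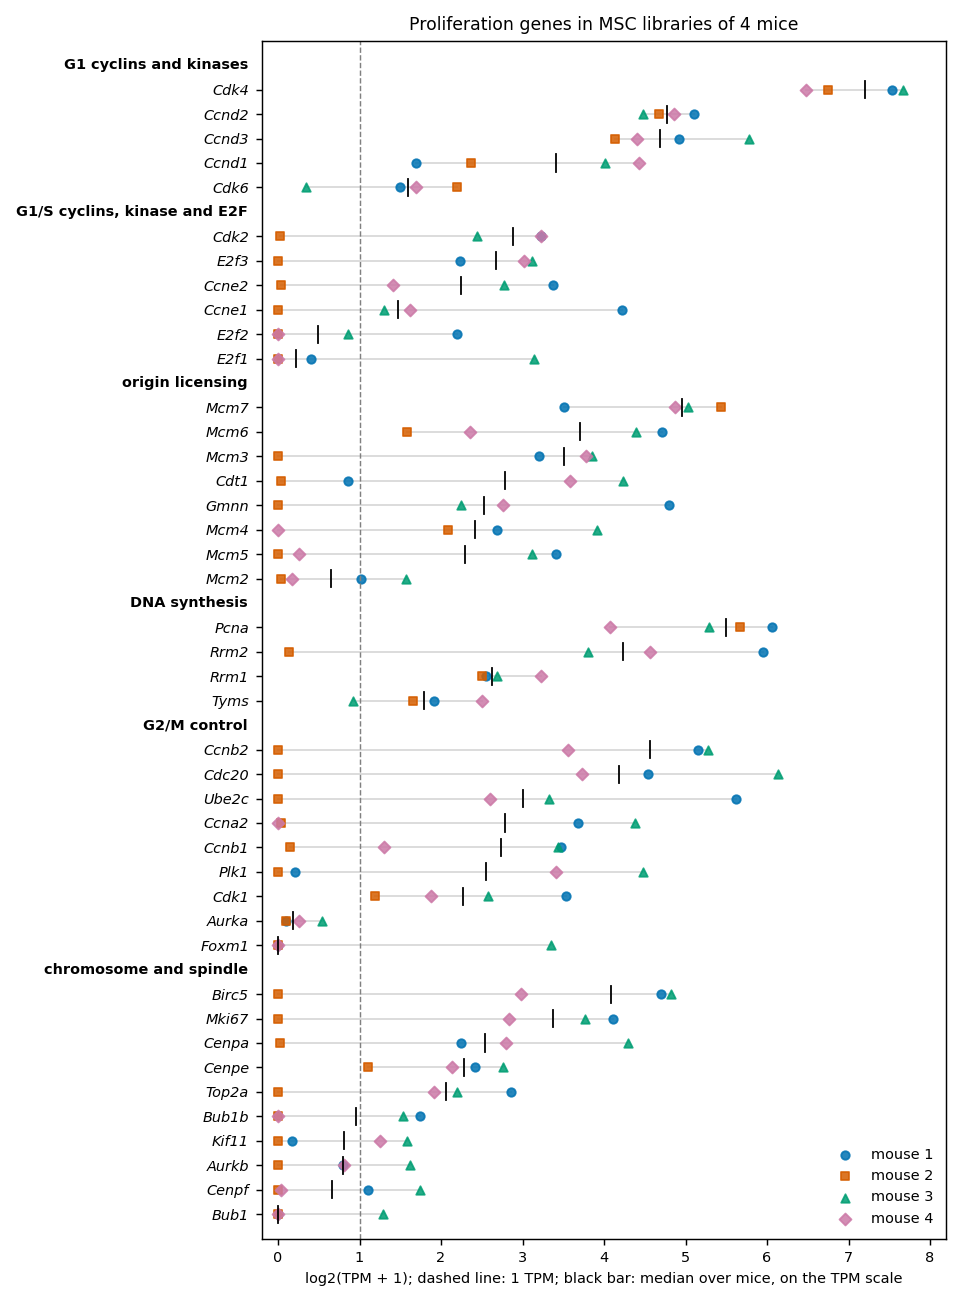
Level of each of the 42 members, as log2(TPM + 1) on the horizontal axis, with 1 point for each of the 4 mice, genes grouped by role and ordered by median, a black bar at the median and a dashed line at 1 TPM. Mouse 2 lies at or near 0 for most G1/S, G2/M and spindle genes. It has more than 1 TPM for all 5 G1 genes, Pcna, Rrm1, Tyms, Mcm4, Mcm6, Mcm7, Cdk1 and Cenpe.

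G1 cyclins and kinases were the best represented group. All 5 had a median above 1 TPM and 3 or more counts in every mouse, and their summed level was 251.3, 155.3, 292.8 and 159.1 TPM in mice 1 to 4 (214.6 ± 68.5, SD, n = 4). Cdk4, the G1 kinase partner of the D-type cyclins, had the highest median of all members, with 184.7, 106.5, 202.2 and 88.0 TPM. It was highest in mice 1 and 3 and present at a high level in all 4. On GRCm38 the gene lies at chr10:127063534-127067920, and 19.7% of its exonic bases overlap the antisense gene Tspan31 (9543, 3710, 8091 and 4630 counts). The counting did not use strand, so pairs within these overlapping ends cannot be given to 1 gene by strand. The options that the study lists include none for counting a pair towards more than 1 gene. The effect on the Cdk4 level was not tested.

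All D-type cyclins were present. Ccnd2 was at 33.3, 24.5, 21.4 and 28.1 TPM and had the narrowest spread of all members (coefficient of variation, CV, 19.1%). Ccnd3 was at 29.2, 16.6, 53.8 and 20.2 TPM. Ccnd1 was at 2.22, 4.14, 15.2 and 20.6 TPM, low in mice 1 and 2 and higher in mice 3 and 4. Its exons share 23.4% of their bases with LTO1 on the opposite strand (389, 1048, 1221 and 43 counts). Cdk6, the second kinase of this step, was at 1.83, 3.58, 0.273 and 2.23 TPM and did not reach the Cdk4 level in any mouse.

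Levels of paired members were compared within each mouse on the log2(TPM + 1) scale by flipping the signs of the 4 differences in every way (an exact permutation test, two-sided), for 6 pairs with Benjamini-Hochberg adjustment. With 4 mice, 0.125 is the smallest p this test can give, so none of the 6 could pass 0.05. Cdk4 was above Cdk6 by 5.67 ± 1.28 (SD, n = 4; higher in 4 of 4 mice; exact permutation p = 0.125, adjusted p = 0.375). Ccnd1 was lower than Ccnd2 in all 4 mice, with a difference of -1.65 ± 1.46 (exact permutation p = 0.125, adjusted p = 0.375). Against Ccnd3, Ccnd1 differed by -1.68 ± 1.33 and was higher in 1 of 4 mice (exact permutation p = 0.25, adjusted p = 0.5). Ccnd2 and Ccnd3 differed by -0.03 ± 0.85, which is within the spread between mice (exact permutation p = 1, adjusted p = 1), and Ccnd2 was higher in 3 of 4 mice. This depended on the gene length used, since with the longest transcript of each gene the difference was -0.63 and Ccnd2 was lower in all 4 mice (exact permutation p = 0.125).

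G1/S genes were almost missing in mouse 2. The cyclins Ccne1 and Ccne2, their kinase Cdk2 and the activator factors E2f1, E2f2 and E2f3 together had 2994, 2, 2105 and 1054 counts in mice 1 to 4, or 43.0, 0.0402, 28.0 and 19.2 TPM. In mouse 2 none of the 6 reached 3 counts, and in mice 1 and 3 all 6 did. Of the 6, 4 had a median above 1 TPM, against 44.2% of protein-coding genes. None was detected in every mouse, against 37.5% of protein-coding genes, and mouse 2 decides this. Ccne1, Ccne2, Cdk2 and E2f3 had 3 or more counts in each of the other mice, where 42.1% of protein-coding genes did.

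Both cyclin E genes were highest in mouse 1. Ccne1 was at 17.6, 0, 1.46 and 2.07 TPM and Ccne2 at 9.40, 0.0257, 5.81 and 1.66 TPM. Ccne2 shares 17.4% of its exonic bases with Ints8 on the opposite strand. Cdk2, which cyclin E activates, was at 8.33, 0.0145, 4.41 and 8.39 TPM, so that mice 1 and 4 were alike and mouse 2 was near 0. Its difference from Cdk1 was -0.06 ± 1.05 on the log2(TPM + 1) scale (n = 4; Cdk2 higher in 1 of 4 mice; exact permutation p = 0.875, adjusted p = 1).

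The activator E2Fs differed in which mice held them. E2f3 was at 3.69, 0, 7.64 and 7.09 TPM, whereas E2f1 was at 0.324, 0, 7.83 and 0 TPM and E2f2 at 3.60, 0, 0.818 and 0 TPM. E2f1 counts were thus almost entirely from mouse 3 and E2f2 counts mostly from mouse 1. E2f3 exceeded E2f1 by 1.202 ± 1.49 on the log2(TPM + 1) scale (n = 4; higher in 2 of 4 mice; exact permutation p = 0.5, adjusted p = 0.75), and both were at 0 in mouse 2. The difference was 0.60 without mouse 4 and 2.32 with a pseudocount of 0.1.

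Origin licensing genes load the MCM helicase onto DNA before replication. Their summed level was 87.7, 47.7, 110.1 and 62.2 TPM (76.9 ± 27.6, SD, n = 4), and 7 of 8 had a median above 1 TPM. The share of protein-coding genes with such a median was 44.2%. Only Mcm6 and Mcm7 of the 8 were detected in every mouse, against 37.5% of protein-coding genes, and mouse 2 decides this. Without it, all of the 8 but Mcm4 had 3 or more counts in each library, against 42.1% of protein-coding genes. Mcm7, a helicase subunit, was the highest of the 8 at 10.4, 42.4, 31.6 and 28.4 TPM, and it was the 1 licensing gene with its highest level in mouse 2. Stretches of 95% identity or more to other genes (Gm5487 and Ap4m1) cover 81.2% of the longest Mcm7 transcript, so its count is uncertain.

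Of the other 5 helicase subunits, 4 had fewer than 3 counts in at least 1 mouse. Mcm3 was at 8.18, 0, 13.4 and 12.7 TPM. Mcm5 was at 9.67, 0, 7.65 and 0.194 TPM, and Mcm4 was at 5.43, 3.26, 14.0 and 0 TPM. Mcm4 was therefore present in mouse 2 and at 0 counts in mouse 4, the reverse of Mcm3. Mcm2 was low throughout at 1.02, 0.0258, 1.98 and 0.125 TPM, while Mcm6 was lowest in mouse 2 (1.98 TPM) and highest in mouse 1 (25.3 TPM).

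Cdt1 and its inhibitor geminin (Gmnn) control when origins may be licensed. Cdt1, whose protein marks G1, was at 0.815, 0.0286, 17.7 and 11.002 TPM. Gmnn, whose protein accumulates from S phase to mitosis, was at 26.9, 0, 3.75 and 5.75 TPM. These are RNA levels, and the proteins were not measured. Mouse 1 held the most Gmnn and little Cdt1, mice 3 and 4 the most Cdt1, and mouse 2 almost none of either.

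All 4 DNA synthesis genes were detected in every library, compared with 0 of 6 G1/S genes and 3 of 19 mitotic members (Cdk1, Cenpe and Ccnb1). Of protein-coding genes, 37.5% were. Much of this contrast rests on mouse 2. Without it, 15 of 19 mitotic members had 3 or more counts in each library, as did 42.1% of protein-coding genes. Ccne1, Ccne2, Cdk2 and E2f3 of the G1/S genes did so too. The summed level of the DNA synthesis genes was 133.8, 56.9, 57.5 and 51.6 TPM (75.0 ± 39.3, SD, n = 4), with mouse 1 above the other three. Pcna, the sliding clamp of the DNA polymerases, was at 65.5, 50.001, 38.2 and 15.9 TPM, the second highest median of the members (44.1 TPM). A processed copy, Pcna-ps2, matches 51.4% of its longest transcript. Rrm2, the cell-cycle regulated subunit of ribonucleotide reductase, was at 60.7, 0.0973, 12.9 and 22.7 TPM. Its partner Rrm1 was at 4.66 to 8.33 TPM in all 4 mice, and Tyms, which makes thymidylate, at 0.893 to 4.69 TPM. In mouse 2, Pcna, Rrm1 and Tyms had levels close to or within the range of the other mice, and Rrm2 had 3 counts. Near-identical stretches in other genes cover 27.9% of the longest Rrm2 transcript and 26.7% of that of Tyms.

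**Figure D2:**
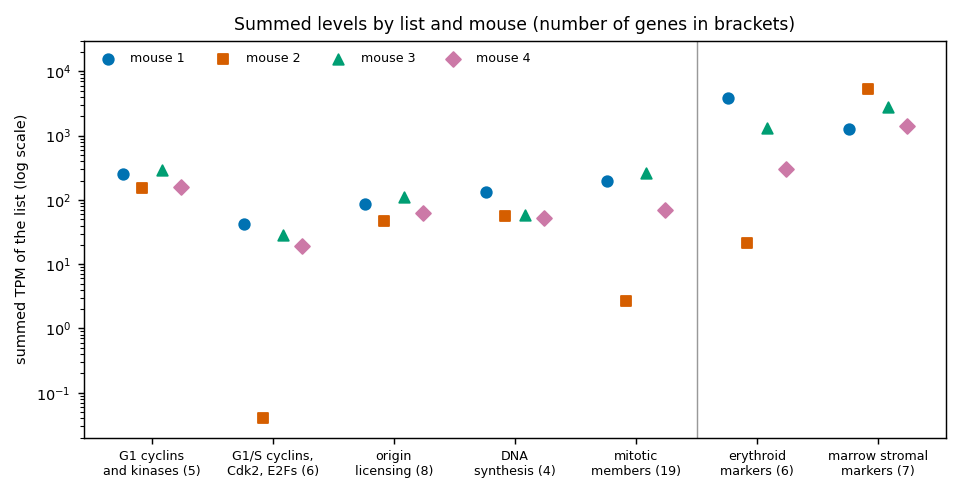
Summed TPM (log scale) of the member lists and of the erythroid and marrow stromal marker lists, with 1 point per mouse and the number of genes in brackets. The mitotic members of mouse 2 sum to 2.65 TPM against 69.3 to 258.7 TPM in the other mice, and its erythroid markers sum to 21.2 TPM against 304.6 to 3821 TPM.

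Mitotic members were present in 3 mice and close to absent in the fourth. The 19 genes summed to 197.5, 2.65, 258.7 and 69.3 TPM in mice 1 to 4 (132.0 ± 116.9, SD, n = 4), or 13326, 190, 16228 and 2899 counts, with the highest mouse 97.7-fold above the lowest. Without mouse 2 the mean was 175.2 TPM. At least 3 counts were found for 17, 3, 19 and 15 of the 19 genes, and 2, 13, 0 and 4 were at 0 counts. With counts scaled in proportion to the smallest library, without drawing reads, the numbers detected were 16, 3, 19 and 15, and mouse 2 again had the fewest. In these bulk libraries, fewer cells of a type and less RNA per cell cannot be told apart.

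Among genes with 3 or more counts in each of mice 1, 3 and 4, those under 3 counts in mouse 2 were 12 of 15 mitotic members (80%), 9 of 20 other members (45%) and 21 of all 35 (60%), compared with 10.9% of 9233 protein-coding genes. The same count for mouse 4 gave 1 of 15 members against 6.13% of protein-coding genes. For mice 1 and 3 it gave 0 of 14 members, against 2.59% and 1.27% of protein-coding genes. These counts require 3 or more counts in mouse 2, which left 3 mitotic members for each. They can therefore not be set against the count for mouse 2. Of all 42 members, 2, 20, 0 and 7 were at 0 counts in mice 1 to 4.

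G2/M control genes summed to 137.7, 1.47, 181.3 and 41.95 TPM (90.6 ± 83.2, SD, n = 4). The B-type cyclins, which activate Cdk1 at the entry into mitosis, were both high in mice 1 and 3, lower in mouse 4 and at or near 0 in mouse 2. Ccnb2 was at 34.7, 0, 37.8 and 10.7 TPM and Ccnb1 at 10.1, 0.107, 9.85 and 1.47 TPM. Ccnb2, whose promoter is printed above, had the highest median of the mitotic members (22.7 TPM). Copies of Ccnb1 (Gm12856, Gm8416 and Ccnb1-ps) match 51.9% of its longest transcript. Cdk1 itself was detected in every mouse, at 10.5, 1.28, 4.96 and 2.67 TPM.

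Genes of the anaphase-promoting complex route followed. Cdc20, which activates that ubiquitin ligase, was at 22.2, 0, 68.9 and 12.2 TPM, and Ube2c, its ubiquitin-conjugating enzyme, at 48.2, 0, 9.04 and 5.06 TPM. Cdc20 was thus highest in mouse 3 and Ube2c highest in mouse 1. Ccna2, the cyclin of S and G2 phase, was at 11.8, 0.0220, 19.9 and 0 TPM, with 0 counts in mouse 4 although Ccnb2 was present there. It shares 12.5% of its exonic bases with Exosc9.

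Regulators of the mitotic program were uneven even between mice with high cyclin B. Foxm1, the factor that drives G2/M genes together with B-Myb, had 913 counts (9.18 TPM) in mouse 3 and 0 counts in mice 1, 2 and 4. Plk1, a mitotic kinase, was at 0.155, 0, 21.2 and 9.59 TPM, so that mouse 1 had 6 counts of it beside 934 counts of Ccnb2. Aurka, the centrosome kinase, had 3, 2, 20 and 5 counts and stayed under 0.5 TPM in each mouse.

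Chromosome and spindle genes gave the same order of mice, with sums of 59.9, 1.17, 77.4 and 27.3 TPM (41.4 ± 33.9, SD, n = 4). Of the 10, 5 (50%) had a median above 1 TPM, near the 44.2% of protein-coding genes. Mki67, the source of the Ki-67 antigen used to mark cycling cells, was at 16.2, 0, 12.6 and 6.14 TPM, which are 2876, 0, 2184 and 638 counts. Top2a, the topoisomerase that untangles sister chromosomes, was at 6.23, 0, 3.58 and 2.77 TPM. Birc5, of the chromosomal passenger complex, was at 24.99, 0, 27.2 and 6.91 TPM. These 3 genes had from 243 to 2876 counts in mice 1, 3 and 4 and 0 in mouse 2.

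Aurkb, the kinase of the passenger complex, was much lower than Birc5 at 0.733, 0, 2.08 and 0.755 TPM. The spindle checkpoint kinases were also low, with Bub1b at 2.34, 0, 1.88 and 0 TPM and Bub1 at 1.45 TPM in mouse 3 and 0 counts in the other three. The spindle motor Kif11 was at 0.122, 0, 1.99 and 1.39 TPM. Cenpa, the histone of centromeres, was at 3.72, 0.0153, 18.6 and 5.94 TPM. Cenpf, a kinetochore protein, was at 1.15, 0, 2.35 and 0.0251 TPM, whereas the kinetochore motor Cenpe was detected in every mouse at 1.16 to 5.75 TPM. Cenpe, with 111 counts, and Cdk1, with 70 counts, made up most of the 190 mitotic counts of mouse 2.

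Of the marker lists for blood and endothelial cells, the erythroid one had the largest sum in every mouse, and it was lowest in mouse 2 as the mitotic members were. Their sum was 3821 TPM in mouse 1, 1315 TPM in mouse 3, 304.6 TPM in mouse 4 and 21.2 TPM in mouse 2, although the sort took Ter119- cells. In mouse 2 Klf1 and Alas2 were among the 3 of 6 markers at 0 counts, and 2 of the 6 were detected. Mitotic members were highest in mouse 3 rather than in mouse 1, with 13 of 19 highest in mouse 3 and 6 in mouse 1. The part of erythroid transcripts in the levels of the proliferation genes was not tested. Markers of B cells, T and NK cells, macrophages, megakaryocytes, blood progenitors and endothelial cells summed to at most 7.95 TPM in any mouse, and neutrophil and granulocyte markers to 6.88 to 39.7 TPM.

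**Figure D3:**
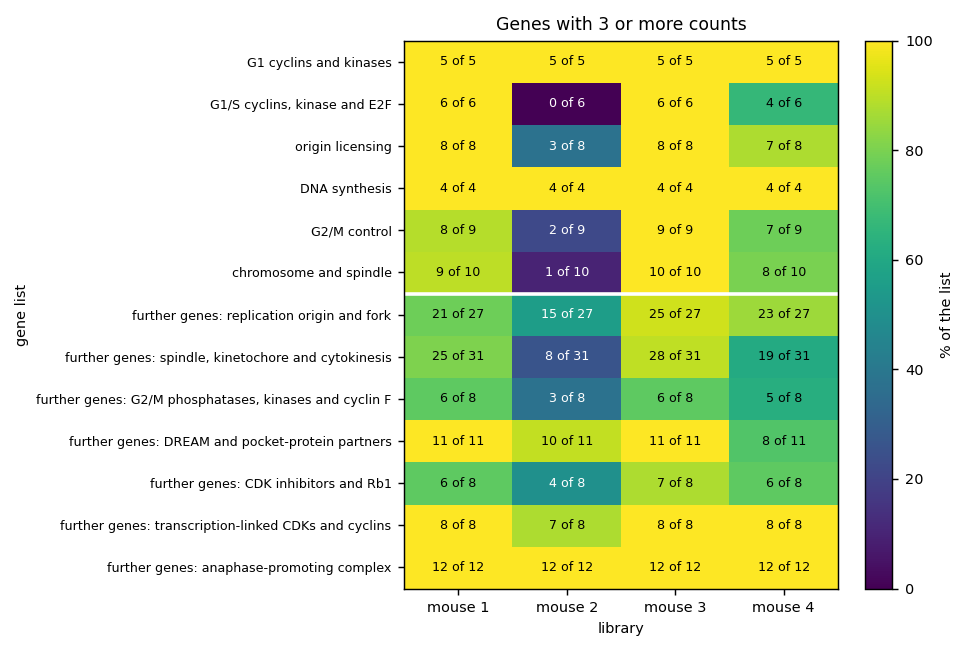
Number of genes with 3 or more counts in each mouse (columns), for the 6 member lists above the white line and 7 further cell-cycle lists below it, with colour giving the percentage of the list. Mouse 2 has 0 of 6 G1/S genes, 2 of 9 G2/M control genes and 1 of 10 chromosome and spindle genes, and 12 of 12 listed genes of the anaphase-promoting complex.

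The rest of the pathway was read from 7 further lists. Over protein-coding genes, 44.2% were above a median of 1 TPM and 37.5% had 3 or more counts in every mouse. The listed genes of the anaphase-promoting complex, Fzr1 among them, were all above a median of 1 TPM (12 of 12) and all detected in every mouse. Cdc16 (154.6, 45.9, 99.1 and 79.3 TPM) and Anapc5 (93.0, 69.0, 94.2 and 59.2 TPM) led them. The list does not hold every subunit, and Anapc15, which is not on it, had a mean of 0.940 TPM. CDK inhibitors with Rb1 had 6 of 8 (75%) above a median of 1 TPM. Cdkn1a, which encodes the inhibitor p21, was at 364.3, 206.3, 372.6 and 333.3 TPM and Cdkn2d, an inhibitor of Cdk4 and Cdk6, at 49.8, 78.9, 49.6 and 61.0 TPM. In every mouse Cdkn1a was thus above Cdk4, the highest proliferation gene.

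Partners of the DREAM complex and the pocket proteins had 9 of 10 with a length above a median of 1 TPM, and 8 of the 11 listed were detected in every mouse. Lin37, a subunit of the MuvB core, was at 7.49, 26.4, 45.5 and 90.6 TPM and Tfdp1, the dimer partner of E2Fs, at 33.5, 30.1, 34.2 and 26.2 TPM. Transcription-linked CDKs and cyclins had 8 of 8 above a median of 1 TPM, led by Cdk7 (median 48.3 TPM) and Ccnh (29.0 TPM). These lists did not share the gap of the mitotic members in mouse 2.

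Replication origin and fork genes outside the members had 20 of 27 (74.1%) above a median of 1 TPM and 12 (44.4%) detected in every mouse. Gins4 (median 45.1 TPM) and Rfc4 (24.02 TPM) led them. Further spindle, kinetochore and cytokinesis genes repeated the pattern of the mitotic members over the mice, with 25, 8, 28 and 19 of 31 detected in mice 1 to 4. Of the 31, 14 (45.2%) were above a median of 1 TPM, near the 44.2% of protein-coding genes. In every mouse 5 (16.1%) were detected. Bub3, a checkpoint protein, was their highest gene at 33.0, 24.8, 43.3 and 16.9 TPM, and Pttg1, which encodes securin, was at 5.74, 10.9, 49.2 and 0 TPM. G2/M phosphatases, kinases and cyclin F had 5 of 8 (62.5%) above a median of 1 TPM and 1 (12.5%) detected in every mouse. Of these, Cdc25b, an activating phosphatase of Cdk1, was at 16.2, 0, 10.4 and 0.0260 TPM and Pkmyt1, an inhibitory kinase of Cdk1, at 3.74, 4.42, 3.22 and 0 TPM.

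The spread between mice was far larger than counting error. The median CV of the members was 98.1%, and counting alone gave 5.18%. All CVs here include mouse 2, in which 20 of 42 members were at 0 counts, and they were not calculated without it. The mitotic sum was 132.0 ± 116.9 TPM (SD) with all 4 mice and 175.2 ± 96.7 TPM without mouse 2. Between a mean of 10 and 100 TPM the median CV was 103.6% for 4 mitotic members, 55.9% for 7 other members and 44.0% for 4055 protein-coding genes. Between 1 and 10 TPM it was 106.6% for 10 mitotic members, 102.8% for 14 other members and 84.7% for 5727 protein-coding genes. Each library started from 100 cells and was amplified by PCR without molecular identifiers, so counting error covers reads and not the molecules behind them.

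**Figure D4:**
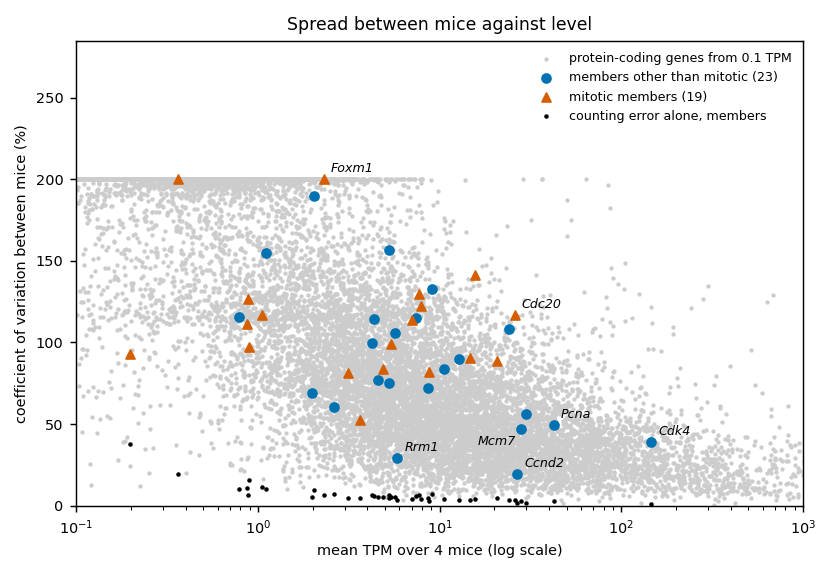
Coefficient of variation of TPM between the 4 mice (vertical axis, %) against mean TPM (horizontal axis, log scale) for protein-coding genes from 0.1 TPM (grey), the 19 mitotic members (triangles) and the 23 other members (circles), with the value that counting error alone gives for each member (black dots). Ccnd2 (19.1%) and Rrm1 (29.3%) lie at the low end of the members and Foxm1 at the upper limit of 200%, which a gene found in 1 of 4 mice takes.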

How the data were processed

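RNA of 100 sorted MSCs from each of 4 mice was sequenced, and the authors deposited 1 table of raw read counts per gene. According to their methods, read pairs were aligned to GRCm39 with STAR 2.7.10, relaxed so that shorter alignments were kept, and uniquely mapped pairs were counted over exons with featureCounts (Subread 1.6.5) on an Ensembl annotation, with no strand option set. All 4 library columns were used, and every row carried a gene ID. Library totals were 22738604 to 43545349 counts, and 3 counts, taken as the smallest detectable value, equal 0.0689 to 0.132 CPM.

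Counts were divided by the exonic length of each gene in GENCODE M21 (GRCm38, joined by Ensembl ID, 52125 genes, 96.1 to 98.2% of counts) and scaled to TPM. That build differs from the one used for counting, and gene positions given are those of GRCm38. Expressed meant a median above 1 TPM. Members of the same role were compared with an exact sign-flip permutation test on log2(TPM + 1), and scripts were checked on simulated data. Near-identical copies were found with BLAST 2.17.0 (at least 95% identity over 100 bases). Python 3.11.15, pandas 2.3.3, R 4.3.3 and edgeR 4.0.16 (TMM scaling, an alternative) were used. The members, the further gene lists and the marker lists were chosen with earlier results of these data known. A gene of the planned erythroid list is not reported here and was left out of its sums. By a set rule, values per mouse were given for the 5 highest members, for members differing over 100-fold in counts or at 0 in 1 mouse and over 100 counts in another, and for the pairs compared, and for the 2 highest genes of each further list. Mice are separate animals of 1 group, and alternatives comprised the length used, scaling, pseudocount, cutoffs and leaving out each mouse.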

Additional observations from a re-analysis of the deposited data

Results flagged for a closer look

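Of 51 values compared, 5 had 1 mouse standing further from the other three than Dixon's 95% limit for 4 samples. That limit would flag 2.55 of 51 independent, normally distributed values. The TPM values hold many zeros, and list sums stand beside their own members, so 5 cannot be judged against 2.55. The gap to the nearest mouse, as a share of the whole range, was 0.883 for Ccne1, with mouse 1 at 17.6 TPM and the others at 0 to 2.07 TPM. For E2f1 it was 0.959, with mouse 3 at 7.83 TPM and the others at 0 to 0.324 TPM. It was 1 for Foxm1 and 1 for Bub1, both found in mouse 3 alone, which fixes the share at 1. The summed level of the DNA synthesis genes gave 0.929, with mouse 1 at 133.8 TPM and the others at 51.6 to 57.5 TPM.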

How the results depend on the processing

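Of 85 alternative values, 76 kept their direction and their side of the threshold or moved by less than the limit set for their kind, 5 moved further and 4 reversed in sign. Since no pair could pass 0.05, keeping the side of the threshold says nothing of how stable a difference was. The number of members above 1 TPM, 32 by the median, was 10 when each mouse had to pass, 20 with a median above 5 TPM and 12 when 10 counts in every mouse were also required, and it was 28 to 36 with each mouse left out in turn. Members detected in every mouse numbered 14 to 35 with each mouse left out, the highest without mouse 2. Mitotic members detected in mouse 2 numbered 6 with 1 count in place of 3, an alternative chosen after seeing the data. So were those with 10 counts (2) and with counts scaled to the smallest library (3). Cdk2 against Cdk1 was 0.46 on the log2 scale with the longest transcript as gene length, -0.62 with a pseudocount of 0.1, and -0.54 to 0.30 with each mouse left out, including 0.017 without mouse 1. Ccnd2 against Ccnd3 was -0.22 to 0.39 with each mouse left out, the highest without mouse 3, and -0.63 with the longest transcript. E2f3 against E2f1 was 0.60 to 1.61 with each mouse left out and 2.32 with a pseudocount of 0.1. Ccnd1 against Ccnd3 was -2.51 with the longest transcript. The causes were not tested. The mean mitotic sum was 89.8 to 175.2 TPM with each mouse left out. No fit with a replicate block was possible because the series has 1 group of mice, and the differences above are between genes within a mouse. Depth limits detection to 3 counts in each library, and amplification from 100 cells limits precision further.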
